A study of Mus musculus with 2 samples.

Results

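The 9 genes described here are 6 HOX genes of the A and B clusters (Hoxa5, Hoxa7, Hoxa9, Hoxa10, Hoxb3 and Hoxb4) and 3 genes of their cofactors (Meis1, Pbx2 and Pbx3), out of 21474 annotated protein-coding genes in the tables. They were taken because they had counts in these libraries or have known roles in blood progenitors, so their being detected is a description and was not tested. Total RNA was measured in granulocyte-monocyte progenitors (GMP), marrow cells on the way to neutrophils and monocytes. The cells came from male C57BL/6J mice aged 5 to 6 weeks, with no treatment or allele named in the labels. There is 1 group of 2 libraries, replicate 1 and replicate 2, each made from a pool of 100 cells. Both carry the same donor identifier. Whether they are separate animals is not given in the sources used here, so each SD below is the spread of 2 libraries and may be technical in origin. The sources used here do not give the sort gate.

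HOX proteins are transcription factors that bind DNA through a homeodomain, and their genes lie in the clusters A, B, C and D in an order that follows their use along the body axis. In blood, genes of the A cluster and some of the B cluster are known to be used in stem and early progenitor cells and to be turned down as cells mature. MEIS and PBX proteins carry a homeodomain of the TALE class, which has extra residues in a loop, and bind DNA together with HOX proteins. HOXA9 and MEIS1 are known for acting together in myeloid leukaemia.

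Each gene's homeobox holds, near its end, the codons of the recognition helix, which lies in the major groove of DNA. The 33 bases that code for 11 residues of this helix are printed because this stretch contacts DNA and sets the HOX genes apart from their cofactors. Bases are from the mm10 (GRCm38) genome, 5′ to 3′ on the coding strand, and capitals mark bases that differ from Hoxa9.
Hoxa5, chr6:52202638-52202670, strand -: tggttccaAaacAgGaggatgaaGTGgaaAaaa
Hoxa7, chr6:52215849-52215881, strand -: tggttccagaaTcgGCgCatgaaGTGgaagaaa
Hoxa9, chr6:52224274-52224306, strand -: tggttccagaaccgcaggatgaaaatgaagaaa
Hoxa10, chr6:52232560-52232592, strand -: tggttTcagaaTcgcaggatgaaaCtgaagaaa
Hoxb3, chr11:96345809-96345841, strand +: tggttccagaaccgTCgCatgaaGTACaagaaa
Hoxb4, chr11:96320197-96320229, strand +: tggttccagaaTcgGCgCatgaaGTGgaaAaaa
Pbx2, chr17:34594810-34594842, strand +: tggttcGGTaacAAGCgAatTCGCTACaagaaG
Pbx3, chr2:34178301-34178333, strand -: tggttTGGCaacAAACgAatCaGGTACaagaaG
Meis1, chr11, strand -, in 2 pieces between 18885621 and 18905690: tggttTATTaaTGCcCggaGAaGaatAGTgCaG
The other 5 HOX genes differed from Hoxa9 at 3 to 8 of these bases and at 1 of the 11 residues each. Hoxa10, the neighbour of Hoxa9 in the cluster, differed least, at 3 bases. Meis1, Pbx2 and Pbx3 each differed at 16 bases, which changed 7 residues in Meis1 and 5 residues in each PBX gene. An intron splits the Meis1 codons.

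The marker genes of the labelled cell type were the highest of those examined, and some markers of other cell types were also detected. All 10 progenitor markers examined, such as Mpo and Elane, reached 1 TPM in both libraries (TPM are a level per transcript length, scaled to a total of 1000000 over each library). Of 10 stem cell markers 3 reached it. These were Hlf (4.85 and 5.29 TPM), Mllt3 (2.85 and 4.09 TPM) and Ctnnal1 (2.81 and 2.92 TPM) in replicates 1 and 2. Ly6a had 0 counts in both libraries, and the 10 markers summed to 12.74 TPM in replicate 1 and 14.03 TPM in replicate 2. Of 6 early lymphoid markers only Flt3 reached it, and Il7r, Rag1, Ccr9 and Ccr7 had 0 counts. Of 6 erythroid and megakaryocyte markers 2 reached it, Gata1 and Itga2b. Total expected counts, which are estimated read counts, were 40509954 in replicate 1 and 35675702 in replicate 2. A count of 0 allows up to 3 counts, or 0.0741 CPM (counts scaled to a library total of 1000000) in replicate 1 and 0.0841 CPM in replicate 2. Such floors and the count intervals below cover counting error only.

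HOX RNA was mainly that of Hoxa7 and Hoxa9, with Hoxb3, Hoxb4 and Hoxa5 lower and Hoxa10 close to 0. Among the cofactors, Pbx2 stood near the level of Hoxa7. Meis1 did so in replicate 1 and was lower in replicate 2, at 6.08 TPM against 10.9 TPM for Hoxa7. Pbx3 stood with the lower HOX genes. Of the 9 genes 7 reached 1 TPM in both libraries, and 45.6% of all protein-coding genes did. Hoxb3 reached it in replicate 1 alone and Hoxa10 in neither. Because these are bulk samples, fewer cells with a gene's RNA and less RNA per cell cannot be told apart.

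Hoxa7, a HOX gene from the middle of the A cluster (chromosome 6, 52214491 to 52221854), had 579 expected counts in replicate 1 and 451 in replicate 2. Its level was 11.3 TPM in replicate 1 and 10.9 TPM in replicate 2, a narrow gap on this scale. Hoxa9, the HOX gene best known for the growth of myeloid progenitors (chromosome 6, 52223100 to 52231089), had 345 counts in replicate 1 (95% exact Poisson interval 310 to 383) and 448 in replicate 2 (407 to 491). Its level was 4.26 TPM in replicate 1 and 7.08 TPM in replicate 2. By TPM of the whole gene Hoxa7 was above Hoxa9 in both libraries, while their counts in replicate 2 were about level. On annotated transcripts whose coding sequence holds the homeobox, described below, the order was the reverse. Hoxa9-201 had 3.74 TPM in replicate 1 and 5.12 TPM in replicate 2, and Hoxa7-201 had 1.05 and 0.73 TPM in the same order. Hoxa5 (chromosome 6, 52201754 to 52204587), which is known from human progenitors for a role in the choice between myeloid and erythroid fate, had 55 counts in replicate 1 and 60 in replicate 2. Its level was 1.09 and 1.33 TPM in replicates 1 and 2, just above 1 TPM in both.

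Hoxa10, known as a regulator of myeloid differentiation (chromosome 6, 52231197 to 52240854), had 1 count in replicate 1 (95% exact Poisson interval 0.0253 to 5.57) and 9 counts in replicate 2 (4.12 to 17.1). Its level was 0.020 TPM in replicate 1 and 0.22 TPM in replicate 2. Its annotated span begins 107 bases from that of Hoxa9, so 2 adjacent genes of the cluster lay at widely separate levels. The single count in replicate 1 is under the 3 counts that a count of 0 allows.

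In the B cluster, Hoxb4, known for its effect on stem cell self-renewal (chromosome 11, 96318267 to 96321638), had 89 counts in replicate 1 and 116 in replicate 2. Its level was 1.26 TPM in replicate 1 and 1.84 TPM in replicate 2. Hoxb3, its neighbour (chromosome 11, 96323326 to 96347930), had 170 counts in replicate 1 (145 to 198) and 57 in replicate 2 (43.2 to 73.9). It had 3.74 TPM in replicate 1 and 0.72 TPM in replicate 2, so Hoxb3 was the higher of the pair in replicate 1 and Hoxb4 in replicate 2.

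Pbx2, a broadly used PBX gene (chromosome 17, 34591266 to 34597400), had 775 counts in replicate 1 and 833 in replicate 2. Its level was 10.04 TPM in replicate 1 and 14.2 TPM in replicate 2. Meis1, the HOX cofactor of stem cells and leukaemia (chromosome 11, 18879817 to 19018985), had 848 counts in replicate 1 and 526 in replicate 2. It reached 11.7 TPM in replicate 1, the highest of the 9 genes there, and at 6.08 TPM in replicate 2, below Pbx2, Hoxa7 and Hoxa9. Pbx3, a PBX partner of HOXA9 in leukaemia (chromosome 2, 34171457 to 34373142), had 96 and 141 counts and stood at 1.89 and 2.21 TPM in replicates 1 and 2.

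**Figure D1:**
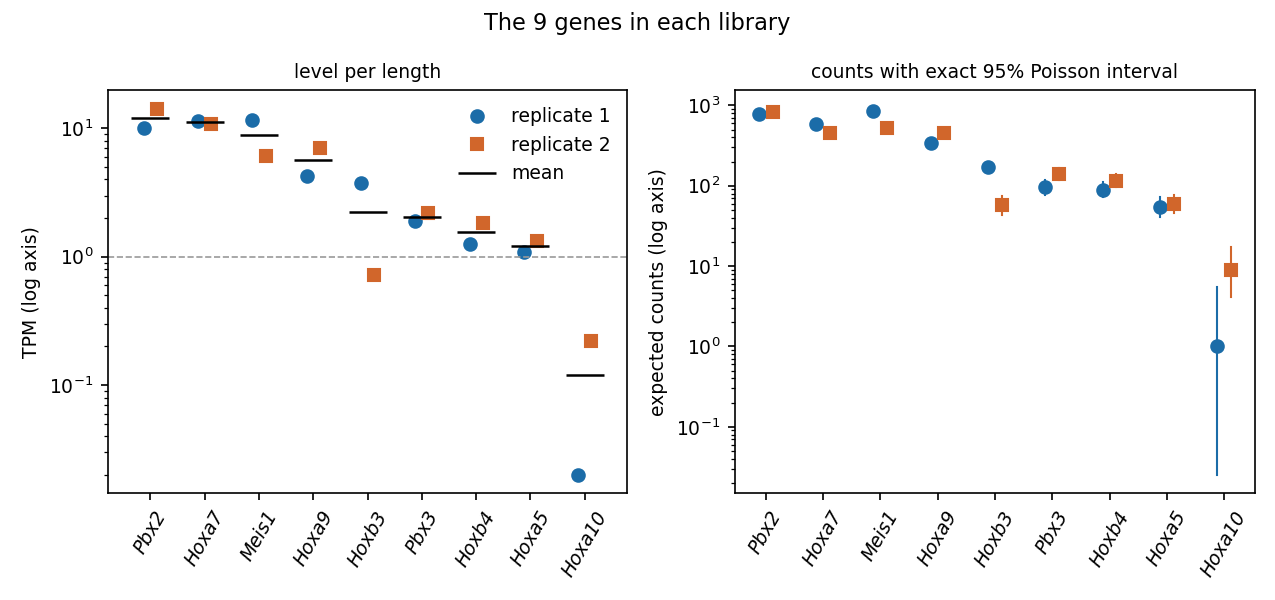
Level of each of the 9 genes in TPM (left, log axis, dashed line at 1 TPM, bar at the mean) and expected counts with exact 95% Poisson intervals (right, log axis), with circles for replicate 1 and squares for replicate 2. Hoxb3 falls on both sides of 1 TPM, at 3.74 and 0.72 TPM, and Hoxa10 lies apart from the rest at 0.020 and 0.22 TPM.

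By mean TPM the order was Pbx2 at 12.1 ± 2.96 TPM (SD, n = 2), Hoxa7 at 11.1 ± 0.290 TPM, Meis1 at 8.88 ± 3.96 TPM and Hoxa9 at 5.67 ± 1.99 TPM. The values of each neighbouring pair among these 4 overlapped between libraries, while Hoxa9 lay below Pbx2 and Hoxa7 in both. Hoxb3 followed at 2.23 ± 2.14 TPM and Pbx3 at 2.05 ± 0.226 TPM, and these also overlapped. Hoxb4 at 1.55 ± 0.410 TPM and Hoxa5 at 1.21 ± 0.170 TPM overlapped with each other, and Hoxa10 was last at 0.12 ± 0.141 TPM. Among neighbours in this order, values did not overlap between Hoxa9 and Hoxb3, between Pbx3 and Hoxb4, or between Hoxa5 and Hoxa10. The gap between Pbx3 (1.89 TPM in replicate 1) and Hoxb4 (1.84 TPM in replicate 2) was small, and their counts overlapped. Hoxb3 in replicate 2, at 0.72 TPM, was below both libraries of Hoxb4 and of Hoxa5. By mean TPM the genes lay from percentile 74.5 (Pbx2) to percentile 45.8 (Hoxa10) of protein-coding genes. Among the genes of 1 TPM or more, Pbx2 was at percentile 46.8 and Hoxa5 at percentile 1.60. The median of all protein-coding genes was 0.55 TPM and that of the 9 genes 2.23 TPM.

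The whole HOX family was then counted, since the 9 genes were picked from it. Of the 39 HOX genes 4 reached 1 TPM in both libraries, Hoxa5, Hoxa7, Hoxa9 and Hoxb4, and 26 had 0 counts in both. Of all 21474 protein-coding genes 45.6% reached 1 TPM in both libraries, and 9128 genes had 0 counts in both. The A cluster summed to 17.6 TPM in replicate 1 and 22.8 TPM in replicate 2, and the B cluster to 5.83 and 2.56 TPM in the same order. All 9 genes of the D cluster had 0 counts, and in the C cluster Hoxc8 had 1 count in replicate 1 and the other 8 genes had 0. The libraries thus held HOX RNA of the A and B clusters, within the limit that a count of 0 allows.

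Within the A cluster, Hoxa7 held 64.5% of summed TPM in replicate 1 and 47.9% in replicate 2, and Hoxa9 held 24.3% in replicate 1 and 31.1% in replicate 2. As shares of counts, which are not divided by length, Hoxa9 held 34.8% in replicate 1 and 40.1% in replicate 2. Hoxa11 and Hoxa13, at the posterior end of the cluster, had 0 counts in both libraries. Hoxa3, an anterior gene outside the 9, had 7 counts in replicate 1 and 94 in replicate 2. Its level was 0.79 and 1.5 TPM in the same order, since the effective length used for it was 301 bases in replicate 1 and 2387 bases in replicate 2. The A genes Hoxa2, Hoxa4 and Hoxa6 had 0 to 3 counts in replicate 1 and 6 to 28 in replicate 2. Hoxa3, these 3 genes and Hoxa10 all had more counts in replicate 2.

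In the B cluster 7 genes had 0 counts in both libraries. Hoxb2, next to Hoxb3, had 36 counts in replicate 1 and 0 in replicate 2. Hoxb3 and Hoxb2 were thus both higher in replicate 1, while Hoxb4 on the other side of Hoxb3 was not.

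**Figure D2:**
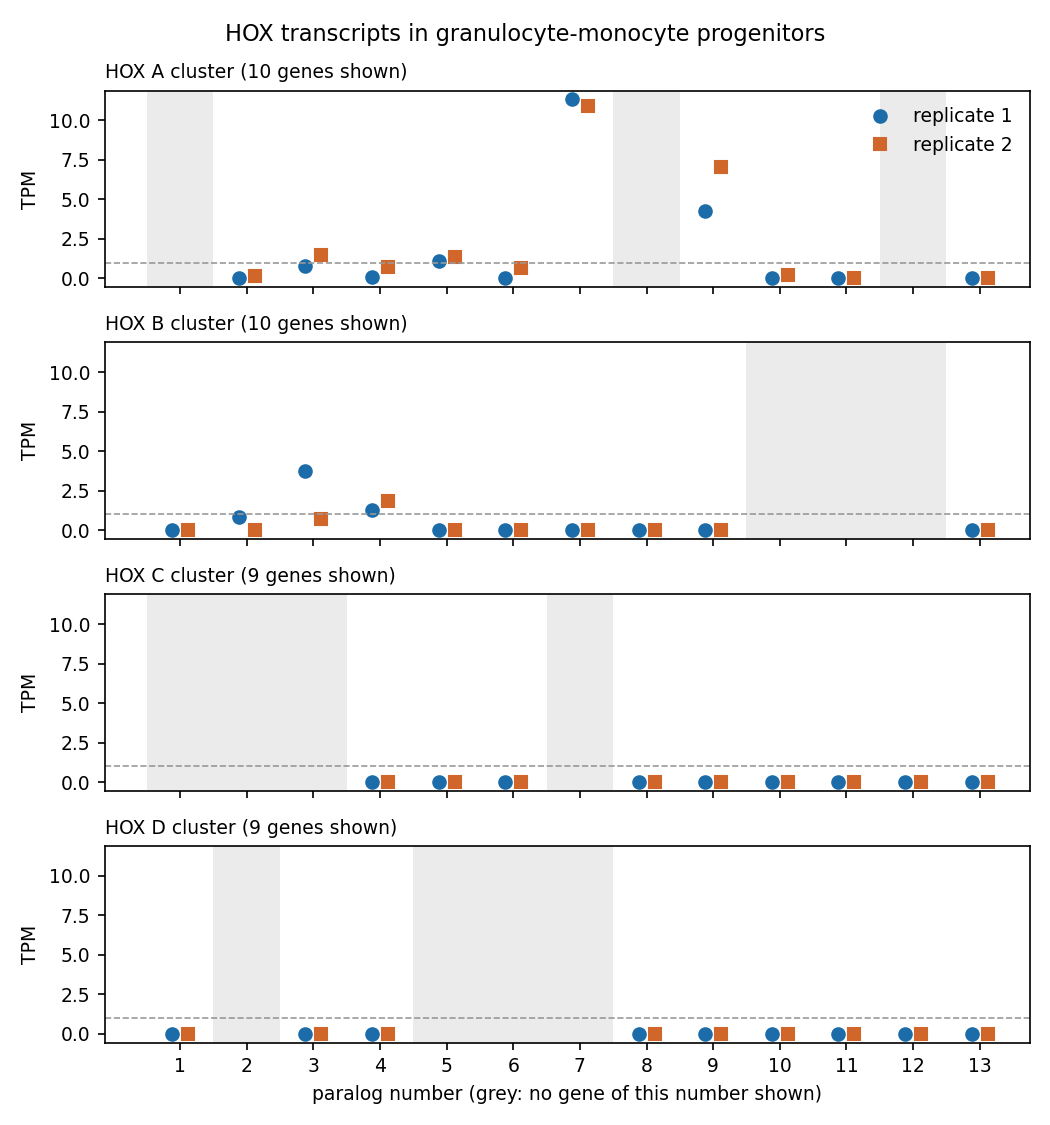
TPM of 38 HOX genes by paralog number in the 4 clusters, circles for replicate 1 and squares for replicate 2, dashed line at 1 TPM, grey where no gene of that number is shown. Points off the baseline are in the A and B clusters, highest at Hoxa7 (11.3 and 10.9 TPM), and the D cluster lies at 0 throughout.

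Between the libraries, 1 of the 8 members of 1 TPM or more on average, Hoxb3, was over 2-fold apart on the log2(TPM + 1) scale, against 7.52% of all protein-coding genes at that level. Its log2 ratio of replicate 2 to replicate 1 was -1.46. On counts scaled to the library total the log2 ratio was -1.39, with a counting interval from -1.85 to -0.95. Meis1 had a log2(TPM + 1) ratio of -0.84 and Hoxa9 of 0.62, in opposite directions. Hoxa7 at -0.05 and Pbx3 at 0.15 differed least on this scale. On TMM-scaled counts, which are not divided by length, Hoxa7 was at -0.26, Pbx3 at 0.64 and Pbx2 at 0.20, so the least different member depends on the scaling. The summed stem cell markers were 12.74 TPM in replicate 1 and 14.03 TPM in replicate 2, so they did not share the direction of Hoxb3 and Meis1. Summed erythroid and megakaryocyte markers were 10.6 TPM in replicate 1 and 9.08 TPM in replicate 2, and their part in these differences was not tested.

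The spread expected at a given count was read from edgeR's biological coefficient of variation, the relative spread beyond counting noise, along its trend over 13814 genes. It was 0.216 to 0.292 at the counts of Pbx2, Meis1, Hoxa7 and Hoxa9, and 0.57 to 0.955 at those of Pbx3, Hoxb3, Hoxb4 and Hoxa5. The 4 lower genes are therefore measured far less firmly. It rests on 1 residual degree of freedom, and Hoxa10 was too low to enter it.

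**Figure D3:**
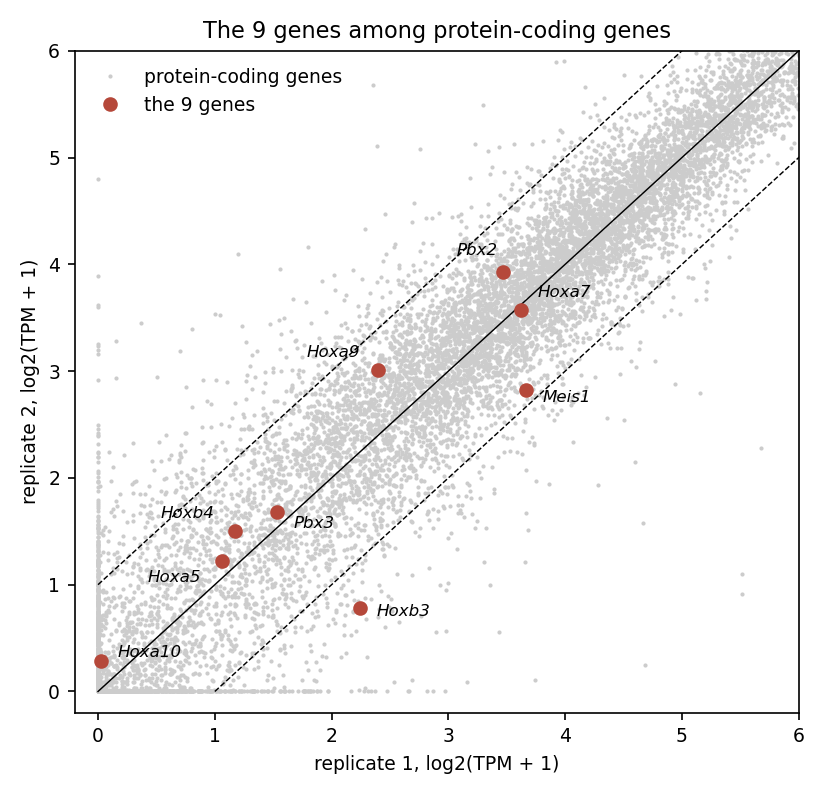
Replicate 2 against replicate 1 in log2(TPM + 1) for protein-coding genes (grey, shown up to 6 on each axis) and the 9 genes (red), with the line of equal values and dashed lines at 2-fold. Hoxb3, with a log2 ratio of -1.46, is the red point outside the dashed lines, and Meis1 at -0.84 lies inside them.

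The deposited transcript tables assign each gene's reads to its annotated transcripts, and for Hoxa7 most of the level in both libraries was put on forms whose coding sequence lacks the homeobox. The same was so for Meis1 by TPM but not by counts in replicate 2. A splice junction of Hoxa7-205 and one of Hoxa9-202, which are 2 such forms, are printed because no other annotated transcript of these genes has them. The last 15 bases of the upstream exon are in lower case and the first 15 of the downstream exon in capitals.
Hoxa7-205, chr6, minus strand, exon ending at 52217933 joined to exon beginning at 52217297: ggagcatcaaatcagAGAAGCGGCTACGGG
Hoxa9-202, chr6, minus strand, exon ending at 52225791 joined to exon beginning at 52225617: ggcgccggacggcagTTGATAGAGAAAAAC
Reads across these junctions were not analysed here, and the assignment below is that of the authors' tables.

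Hoxa7 was put mainly on Hoxa7-205, a transcript annotated as subject to nonsense-mediated decay, the pathway that removes messages with an early stop. It took 81.9% of the gene's TPM in replicate 1 and 72.2% in replicate 2. Those shares rest on 509 of 579 counts in replicate 1 and 387 of 451 in replicate 2. Hoxa7-201, the one annotated form whose coding sequence holds the homeobox, took 9.27% in replicate 1 and 6.69% in replicate 2, with 55.3 and 34.4 counts. Hoxa7-203, a short form of 643 bases, took 8.87% and 21.1% in the same order. Hoxa7-205 has 2 upstream exons of 71 and 152 bases and then a 268-base part of the 476-base first exon of Hoxa7-201. That part lacks the start codon of Hoxa7-201 at position 52217405, and both forms share nearly all of a last exon of 1540 and 1533 bases that holds the homeobox codons. The forms can be told apart only by their 5′ exons and the junctions between them. The deposited length of Hoxa7-201 was 1952 bases, against 2009 in the annotation used here, so the exons given here may differ from those used for the tables.

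Across protein-coding genes with several transcripts, the median share on transcripts of protein-coding type was 89.6% in replicate 1 and 87.5% in replicate 2. The share was under 50% for 18.9% of these genes in replicate 1 and 18.0% in replicate 2. For Hoxa7 it was 18.1% in replicate 1 and 27.7% in replicate 2, so Hoxa7 is among a sizeable minority of genes on this measure.

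Hoxa9 was put mainly on Hoxa9-201, which holds the homeobox and took 87.9% of TPM in replicate 1 and 72.4% in replicate 2. Hoxa9-202, in which a 173-base stretch of the first exon is spliced out and the coding sequence ends before the homeobox, took 0% in replicate 1 and 22.1% in replicate 2. That share rests on 28.5 of 448 counts in replicate 2, with a posterior SD of 5.55 counts. A truncated Hoxa9 form without the homeodomain is known from such a splice. Hoxa9-203, a non-coding form whose first exon lies upstream, took 12.1% and 4.75% from 7.82 and 4.59 counts in replicates 1 and 2. The counts of Hoxa10 were all put on Hoxa10-203, a processed transcript without a coding sequence, and the 2 coding forms that hold the homeobox were given 0 counts. Hoxa10-203 and the coding form Hoxa10-202 both had posterior SDs of 0.49 counts in replicate 1 and 1.74 in replicate 2. They share nearly all of a last exon of 1582 and 1584 bases, and the split between them is uncertain.

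Hoxb4 and Hoxa5 have 1 annotated transcript each, which holds the homeobox. Hoxb3 was on Hoxb3-202, which holds it, for 153 of 170 counts in replicate 1 and all 57 in replicate 2. The 17 other counts in replicate 1 were put on Hoxb3-204, a non-coding form of 446 bases, which by its short length took 54.1% of TPM there and 0% in replicate 2. They supply 2.02 of the 3.74 TPM of Hoxb3 in replicate 1. Hoxb3-202 alone had 1.72 TPM in replicate 1 and 0.72 TPM in replicate 2, which differ in the same direction but by under 2-fold on the log2(TPM + 1) scale. That Hoxb3 was over 2-fold apart on that scale thus depends on the 17 counts of Hoxb3-204. On the gene's counts scaled to the library total the log2 ratio was -1.39.

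Pbx2 was mostly on forms that hold the homeobox, with 98.1% of TPM in replicate 1 and 89.7% in replicate 2. Pbx2-201 led with 76.5% in replicate 1 and 67.0% in replicate 2. Pbx2-203 took 21.6% in replicate 1 and 0% in replicate 2, while Pbx2-205 took 0% and 22.7% in the same order, so these 2 minor coding forms changed places. Pbx2-202, a retained intron form of 659 bases, took 1.90% in replicate 1 and 10.3% in replicate 2. Those shares rest on 2.8 counts (posterior SD 8.94) in replicate 1 and 19.25 counts (posterior SD 5.75) in replicate 2.

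Meis1 had forms with the homeobox for 28.0% of TPM in replicate 1 and 45.8% in replicate 2. As shares of counts, which are not divided by length, these forms held 42.4% in replicate 1 and 62.5% in replicate 2. Its main form was Meis1-203, a processed transcript, at 46.5% in replicate 1, and the coding form Meis1-201 at 30.3% in replicate 2. Meis1-201 took 20.3% in replicate 1 and Meis1-203 took 18.8% in replicate 2. The retained intron forms were Meis1-204, with 17.0% in replicate 1 and 7.75% in replicate 2, and Meis1-205, with 0% and 27.7%. The coding form Meis1-206 took 1.62% in replicate 1 and 15.5% in replicate 2. The shares of all 5 forms named here differed between the 2 libraries, and posterior SDs reached 24.3 counts in replicate 1 for Meis1-201.

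Pbx3 had forms with the homeobox for 34.9% of TPM in replicate 1 and 67.0% in replicate 2. The coding form Pbx3-202 took 12.4% in replicate 1 and 66.9% in replicate 2, and the other, Pbx3-201, took 22.8% and 0% in the same order. Pbx3-210, a processed transcript, took 48.9% in replicate 1 and 10.1% in replicate 2. Pbx3-208, a retained intron form, took 16.0% and 23.0%, the closest agreement among the 4.

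**Figure D4:**
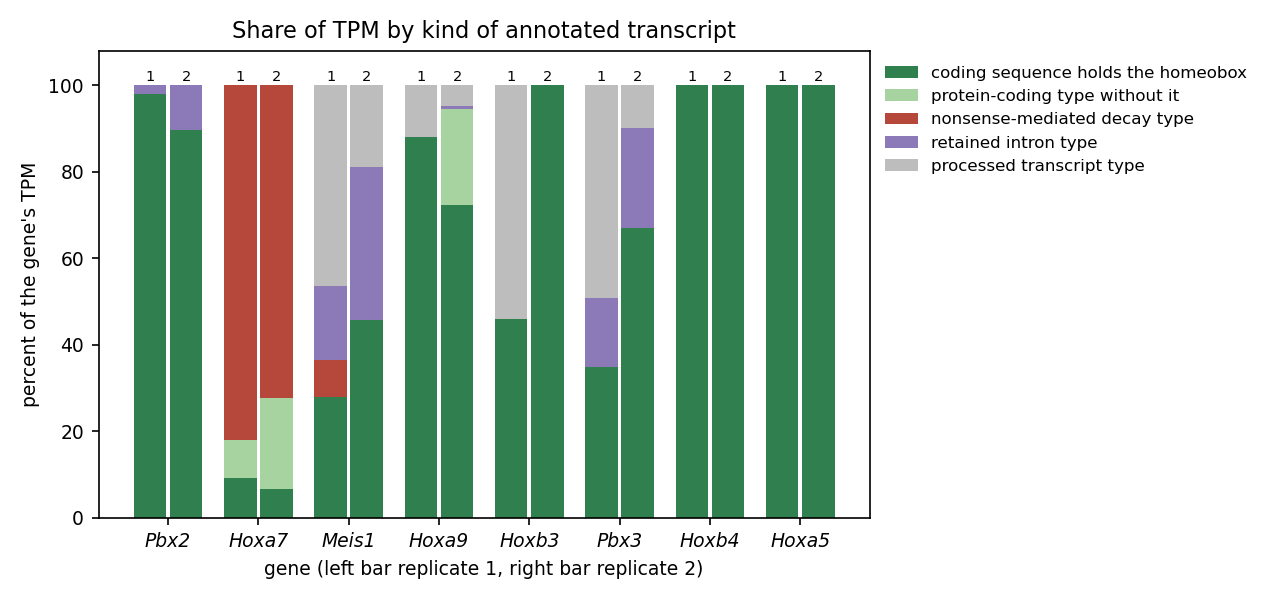
Percent of each gene's TPM on annotated transcripts whose coding sequence holds the homeobox (dark green) and on other kinds, left bar replicate 1 and right bar replicate 2, for the 8 genes of 1 TPM or more on average. The dark green part is smallest for Hoxa7, at 9.28% and 6.68%, and fills both bars of Hoxb4 and Hoxa5.

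Some counts of members may be shared with neighbours, since the sources used here do not state whether counting used strand. Gpsm3 overlaps the start of Pbx2 on the same strand and had 711 counts in replicate 1 and 745 in replicate 2. In replicate 1 the counts of Pbx2 and Gpsm3 were not whole but summed to 1486, so reads were divided between them there. Inside Meis1 and on its strand lie 3 unverified loci, Gm37818 with 150 and 83.8 counts, 2610001A08Rik with 49 and 50, and 2900018N21Rik with 36 and 20, in replicates 1 and 2. The counts of Meis1 and Gm37818 summed to 998 and 610. The antisense RNA Hoxaas3, which overlaps Hoxa5 and the end of Hoxa7, had 23 counts in replicate 1 and 13 in replicate 2. The span of Hoxa3 also covers Hoxa5 on the same strand, and Hoxa3 had 7 counts against 55 for Hoxa5 in replicate 1 and 94 against 60 in replicate 2. Hoxa3 in replicate 2 is the one overlapping gene with more counts than the member it overlaps.

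Of 11 cofactor genes of the MEIS, PBX, PKNOX and TGIF families with Pbxip1, 8 reached 1 TPM in both libraries. The share of all protein-coding genes that did was 45.6%. Meis2, Meis3 and Pknox2 had 0 counts. Meis1 was thus the one MEIS gene with counts. Tgif1, a TALE repressor, was highest, with 41.9 TPM in replicate 1 and 38.5 TPM in replicate 2. Pknox1, which also pairs with PBX, was at 7.31 and 9.88 TPM in replicates 1 and 2.

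Pbx4 had 95 counts and 3.35 TPM in replicate 1 and 180 counts and 12.1 TPM in replicate 2. By TPM it was above Pbx3 in both libraries and below Pbx2 in both. By counts Pbx3 was at 96 in replicate 1, about level with Pbx4, and at 141 in replicate 2. The effective length used for Pbx4 was 964 bases in replicate 1 and 568 bases in replicate 2. Tgif2 was at 2.53 and 6.15 TPM, and Pbxip1, which binds PBX proteins and blocks their DNA binding, was at 4.63 and 4.69 TPM.

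Of 8 genes known as targets of HOX and MEIS proteins, 6 reached 1 TPM in both libraries, and 45.6% of all protein-coding genes did. Myb, a regulator of progenitor growth, had 274 TPM in replicate 1 and 270 TPM in replicate 2. Bcl2 (21.3 and 23.9 TPM), Erg (15.3 and 16.5 TPM) and Sox4 (12.3 and 15.2 TPM) were near the level of the highest members or above it. Pim1, a survival kinase, was at 9.93 and 15.3 TPM, and Flt3, a receptor of early progenitors, at 2.31 and 5.95 TPM. Id2 had 4.05 TPM in replicate 1 and 0.82 TPM in replicate 2, and Trib2 was under 1 TPM in both, at 0.70 and 0.090 TPM. These genes have many other regulators, and levels in 1 cell type do not show which factor acts on them.

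**Figure D5:**
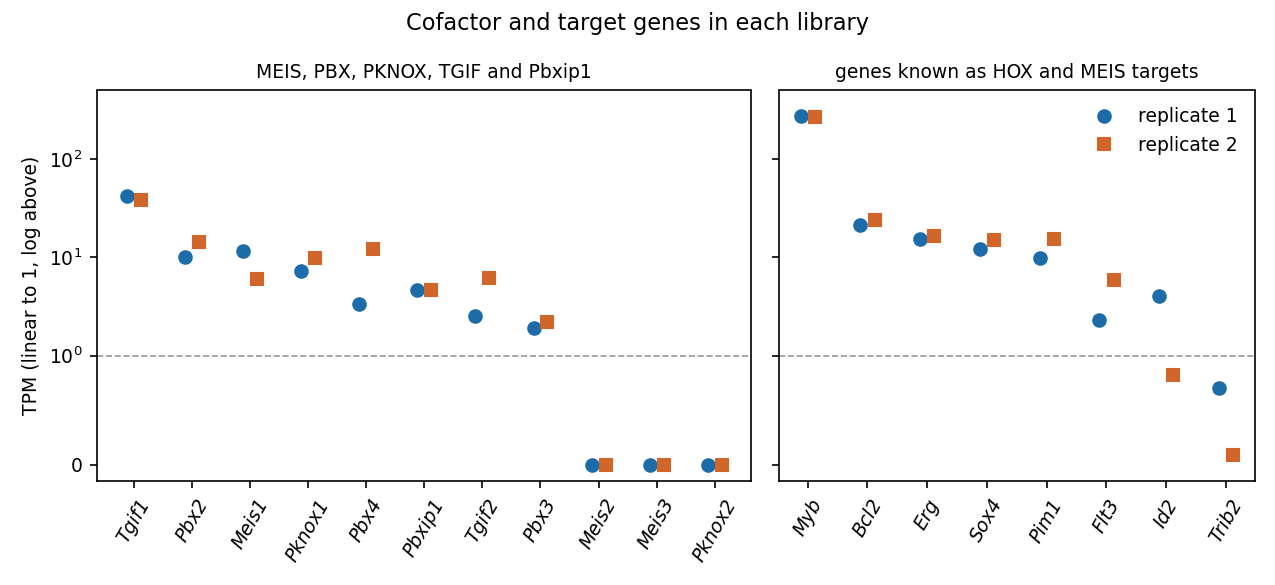
TPM of 11 cofactor genes (left) and 8 target genes (right), circles for replicate 1 and squares for replicate 2, on an axis that is linear up to 1 (dashed line) and logarithmic above. Meis2, Meis3 and Pknox2 lie at 0, and Myb is highest at 274 and 270 TPM.

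Hoxa9 and Hoxa10 lie side by side at separate levels, so the 250 bases upstream of a start of each are printed, from RefSeq on GRCm38.p6, with each CG pair in capitals.
Hoxa9, chr6:52227371-52227620, minus strand: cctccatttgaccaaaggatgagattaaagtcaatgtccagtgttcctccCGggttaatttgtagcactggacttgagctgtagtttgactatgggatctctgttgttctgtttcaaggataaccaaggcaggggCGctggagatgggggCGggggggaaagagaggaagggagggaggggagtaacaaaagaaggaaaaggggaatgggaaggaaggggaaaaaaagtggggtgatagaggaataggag
Hoxa10, chr6:52234940-52235189, minus strand: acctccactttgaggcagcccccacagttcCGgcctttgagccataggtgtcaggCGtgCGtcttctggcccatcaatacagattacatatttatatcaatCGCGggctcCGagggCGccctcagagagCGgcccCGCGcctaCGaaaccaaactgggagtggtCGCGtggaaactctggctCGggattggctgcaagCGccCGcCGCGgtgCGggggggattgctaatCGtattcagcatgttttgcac
The Hoxa9 window holds 3 CG pairs and 49.6% G and C, and the Hoxa10 window 20 CG pairs and 59.2% G and C. A second Hoxa10 window, at the upstream start (chr6:52240855-52241104), holds 7 CG pairs and 51.6% G and C. The median of 32851 promoter windows was 6 CG pairs and 52.4%. The Hoxa10 window printed belongs to the start of the coding form Hoxa10-202, which was given 0 counts in an uncertain split, and Hoxa9 has the start of Hoxa9-201. RefSeq windows were matched for 7 of the 9 genes. The MEIS and PKNOX motif TGACAG and the PBX with HOX motif TGATTNAT, searched on both strands, were found in none of the 8 windows of these 7 genes, against 15.9% and 2.82% of all windows. So few windows cannot show whether the motifs are rarer here than in all windows. The Hoxa7 window (chr6:52218574-52218823) is not at the start of Hoxa7-205, whose first exon spans 52220323 to 52220393. Beyond these windows no sequence was searched.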

How the data were processed

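Total RNA of 2 pools of 100 cells was measured. The expected counts, which are estimated counts that need not be whole, the TPM and the FPKM are as the authors deposited them. The percent of a gene on each transcript and the posterior SD of each transcript's count are also from the deposited tables. Reads were aligned to mm10 with annotation M4, per the text deposited with each library. Not given in the sources used here are the aligner, the quantification tool and the strand setting. The pseudocount in log2 values is 1, which understates ratios of low genes.

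GENCODE M21, a later version on the assembly of M4, gave symbols, spans, biotypes and coding sequences. Of 43346 Ensembl rows 42462 matched. Coding sequences were translated with Biopython 1.88 and searched for the homeobox helix. Count intervals are 95% exact Poisson intervals on rounded counts. Expected counts were rounded, scaled by TMM and fitted with an intercept alone in edgeR 4.0.16 (R 4.3.3) to describe the spread. DESeq2 1.42.0 size factors, other thresholds, pseudocounts and scalings, and each replicate left out were the alternatives. With 1 group no test was run. Steps were tested on simulated data. Other steps used Python 3.11.15, numpy 2.4.6, pandas 2.3.3, scipy 1.17.1 and matplotlib 3.10.9.

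The members and lists were chosen with earlier results of these data known. Named are all 9 genes, HOX genes of 1 TPM or more on average, the cofactor and target list genes, overlapping or nearby non-HOX RNAs with counts that the text describes, and transcripts of 5% or more on average. Other low HOX genes were named to account for counts. Some genes that the rule takes in are not reported in the text. The share of TPM on forms with the homeobox was added after seeing the data.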

Additional observations from a re-analysis of the deposited data

How the results depend on the processing

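No paired analysis was possible because the series holds 1 group. Of the 9 genes, 7 reached 1 TPM in both libraries. This number was 8 at 0.5 TPM and at 10 expected counts, and 7 to 8 in a single library. The number of the 39 HOX genes was 4, and it was 6 at 0.5 TPM and 5 at 10 counts and in each single library. Of the members of 1 TPM or more on average, Hoxb3 was the 1 over 2-fold apart under each pseudocount and normalization, with a log2 ratio of -2.23 with pseudocount 0.1. Hoxa10, below that minimum with 1 and 9 counts, was at 0.26, and at 1.42 with pseudocount 0.1, 1.46 with TMM factors and 2.39 with DESeq2 size factors. The values with TMM and DESeq2 factors also differ in pseudocount, 0.1 on CPM and 1 on counts. With no pseudocount the log2 CPM ratio of Hoxa10 was 3.35. With TMM factors the log2 ratio of Pbx3 was 0.64 and with DESeq2 size factors 0.65, against 0.15 on TPM, since its effective length differs between libraries. The mean share of A cluster TPM held by Hoxa9 was 27.7%, 24.3% to 31.1% in single libraries, and 37.5% as a share of counts, which are not divided by length. The mean share of Meis1 on forms with the homeobox was 36.9% of TPM and 52.5% of counts. The mean share of Hoxa7 on the form with the homeobox was 7.98%, 8.58% of counts, and 6.68% to 9.28% in single libraries. TPM rescaled without 4 abundant loci (Gm42418, Gm26917, Lars2 and Mir6236) are 1.39 times higher in replicate 1 and 1.34 times higher in replicate 2 for all genes. FPKM rescaled to the TPM total are TPM by definition, so that setting could not move a mean and is no check on the levels. With 2 pools of 100 cells, the transcript shares of Hoxb3 and Pbx3 rest on few counts, 57 to 170 a gene and library.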

Other observations

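Outside the HOX and TALE genes, the homeobox genes Cux1, Hhex and Hmbox1 had higher levels than any of the 6 HOX members. The genes given here were named after their values were seen, from genes whose annotated coding sequence holds the letters of the recognition helix. Cux1, a homeobox gene with CUT domains, had 51.9 TPM in replicate 1 and 52.9 TPM in replicate 2. Hhex, a homeobox gene needed in early blood development, was at 34.0 and 41.9 TPM, and Hmbox1, which binds telomeric DNA, was at 22.7 TPM in both. Pou2f1 and Pou2f2, which encode octamer-binding factors, were at 15.02 and 9.81 TPM and at 9.35 and 12.9 TPM in replicates 1 and 2. Hlx was lower, at 3.00 and 2.44 TPM. The caudal genes Cdx1, Cdx2 and Cdx4, known as regulators of HOX genes in the embryo, had 0 counts in both libraries. The microRNA genes Mir196b and Mir10a, which lie beside Hoxa9 and Hoxb4, also had 0 counts, in libraries made from RNA above 200 bases that are not built to hold mature microRNAs.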
